A study of Arabidopsis thaliana with 20 samples.

Results

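In rosettes of Arabidopsis thaliana, 99 of 22746 probe sets (0.435%) had transcripts that were lower after 24 h of darkness and lower again when the dark plants were under water. The members were chosen on differences between group means of log2 values. Shoot dark 24 h minus shoot light had to be -0.5 or less, and shoot submerged minus shoot dark had to be -0.8 or less at both 7 h and 24 h. Of the 99, 47 named 1 gene each, 1 named several genes and 51 were unnamed here, so the named genes below are about as many as the unnamed ones. The darkness threshold alone took 5169 probe sets, or 22.7% of those measured, and both water thresholds alone took 267. The members are thus a small share of the first and a larger share of the second. Of the 267, 105 were instead raised by 0.5 log2 units or more in dark 24 h shoots.

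Submergence combines lack of light with slow gas exchange. Photosynthesis stops in the dark, sugars run down, and in water the supply of carbon dioxide and oxygen to the leaf falls while ethylene collects. Plants respond to such a shortage of energy by lowering the transcripts of many genes of growth and light-dependent metabolism.

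All plants were the Col-0 accession with 9 to 10 leaves, grown in individual pots of soil at 20 °C with a 9 h photoperiod. Submerged plants were covered completely with water in darkness for 7 h or 24 h, dark controls stood unflooded in that chamber, without light, for 7 h or 24 h, and light controls were taken at 0 h from the lit growth chamber. Treatments began 2 h into the light period, so the 7 h harvest also fell at another hour of the day than the 0 h light control, and darkness and hour cannot be told apart in that comparison. Whole shoots and whole roots were taken from each condition in 2 replicate experiments that the series describes as independent and biological, which gave 20 arrays in 10 groups; the number of plants behind an array was not given. RNA was hybridised to Affymetrix ATH1 arrays, and levels are deposited log2 values from RMA, a summary over the probes of each probe set. Because a shoot or root is a mixture of cells, fewer cells of a type and less RNA per cell cannot be told apart. Array medians were between 6.14 and 6.41, and the 2 arrays of a group correlated at r = 0.992 to 0.996 across probe sets. Of the root marker list, 4 of 13 genes were measured by name, and their summed log2 level was 13.26 to 14.18 in roots and 8.40 to 9.90 in shoots. Of the shoot marker list, 2 of 12 were measured by name, RCA and STOMAGEN, with a summed log2 level of 12.89 to 14.26 in shoots and 5.77 to 7.79 in roots. STOMAGEN is itself a member.

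The rule used the shoot arrays, so the shoot values are a description and carry no test. Every member had both dark 24 h arrays below both light arrays, both submerged 7 h arrays below both dark 7 h arrays and both submerged 24 h arrays below both dark 24 h arrays. The rule made this likely, its share over all probe sets was not counted, and nothing is read from it. Across all probe sets, 25.4% were called lower in dark 24 h than light shoots, 7.14% lower in submerged than dark shoots at 7 h and 6.02% at 24 h (limma, Benjamini-Hochberg adjusted p under 0.05), and nothing is read from the members' count against these shares. The median member was 1.49 log2 units lower in dark 24 h than light shoots, 1.33 lower in submerged than dark shoots at 7 h and 1.15 lower at 24 h. Under water at 24 h the median member was 2.87 log2 units below the light control, with a range of -7.25 to -1.46.

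**Figure D1:**
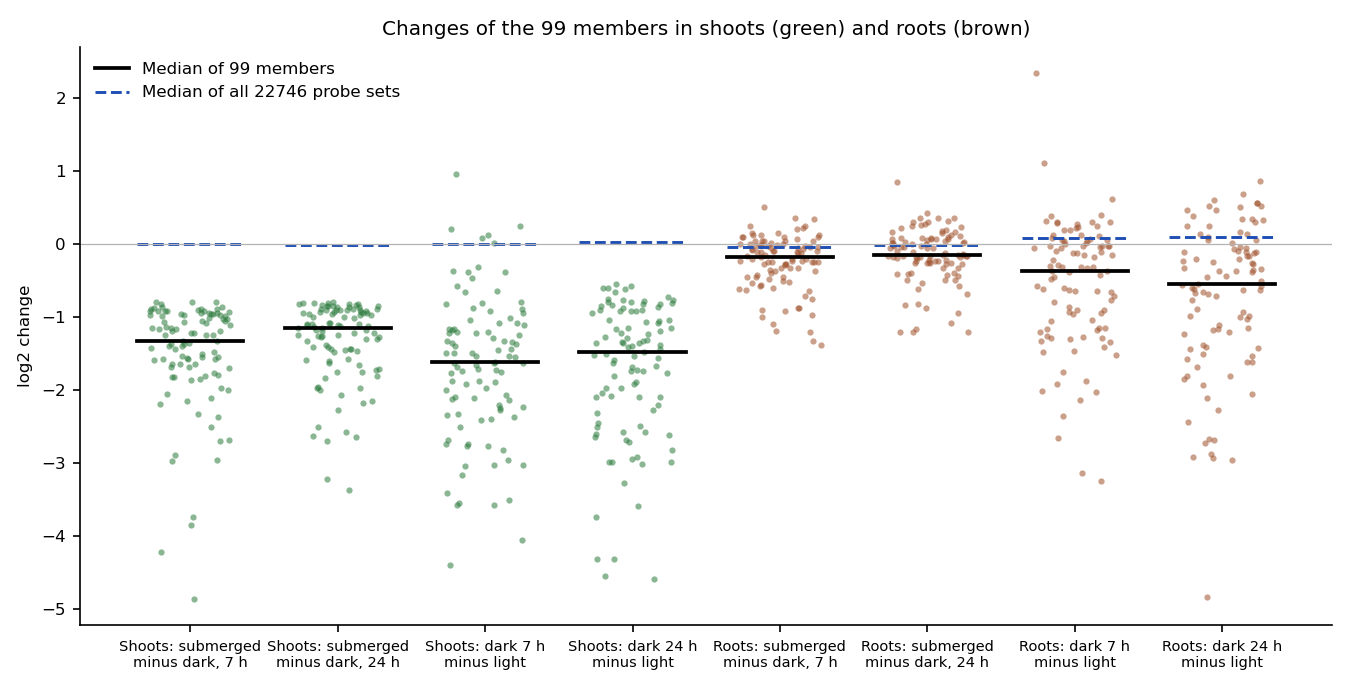
log2 change of each of the 99 members (points) in 8 comparisons, shoots in green and roots in brown, with the median of the members (black line) and of all 22746 probe sets (dashed blue line). The shoot changes set by the rule lie below its thresholds, and in roots the members' medians are -0.18, -0.15, -0.38 and -0.55 while points spread on both sides of 0.

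Among the named members, the widest differences between submerged shoots at 24 h and light shoots were those of COR15A and COR15B, neighbouring genes on chromosome 2 for small proteins that protect chloroplast membranes in the cold. COR15A was at 6.84 and 7.17 in submerged shoots at 7 h, against 10.80 and 10.90 in dark shoots at 7 h. At 24 h it was at 4.68 and 4.86 in submerged shoots, against 7.50 and 7.36 in dark shoots, and the light shoots were at 11.96 and 12.10. The darkness difference at 24 h and the water difference at 7 h were of similar size in this gene, -4.60 and -3.85, and submerged shoots at 24 h were 7.25 log2 units below light shoots. Where a submerged level lies under 6, as it does here, such a difference is a lower limit of the change, since the array values compress near the bottom of their range. COR15B was at 5.41 and 4.91 in submerged shoots at 7 h, against 9.11 and 9.66 in dark shoots at 7 h. At 24 h it was at 4.64 and 4.95 in submerged shoots, against 5.88 and 5.64 in dark shoots, with light shoots at 10.18 and 10.44. In darkness without water both genes were still within 1.18 log2 units of the light control at 7 h, whereas in water they were already over 5 units below it. Both were at or under 4.86 on every root array, so that roots give no reading of them.

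The list of cold-regulated genes held 12 genes, of which 3 were measured by name and 2 were members. The third was COR47, a dehydrin gene. COR47 was 2.12 log2 units higher in dark 24 h than light shoots and so did not meet the rule, while it was 1.69 units lower in submerged than dark shoots at 7 h and 0.96 lower at 24 h. The darkness difference of COR47 thus had the opposite sign to that of COR15A and COR15B, and its water differences had the same sign. Another member, AT4G30650, belongs to the small hydrophobic proteins induced by low temperature and salt. AT4G30650 was at 7.57 and 7.90 in submerged shoots at 7 h, against 9.72 and 10.15 in dark shoots at 7 h, and at 5.71 and 5.72 in submerged shoots at 24 h, against 6.74 and 6.90 in dark shoots at 24 h. Light shoots were at 9.97 and 9.65, so the dark 7 h shoots overlapped with the light ones and only the dark 24 h shoots lay below them.

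A set of 4 members encodes GDSL esterases, secreted lipid hydrolases many of which act on lipids of the cell surface; they were grouped after their values were seen. These 4 had the deepest early darkness differences among the named members with AT1G51110, between -3.51 and -2.82 in dark 7 h minus light shoots. AT5G45950 was at 4.52 and 4.22 in submerged shoots at 7 h, against 6.92 and 6.85 in dark shoots at 7 h. At 24 h AT5G45950 was at 5.66 and 5.74 in submerged shoots, against 7.79 and 7.58 in dark shoots, with light shoots at 10.36 and 10.43. It was thus lower at 7 h than at 24 h in both treatments, and 4.70 log2 units below light in submerged shoots at 24 h. AT1G29660 was at 6.04 and 6.24 in submerged shoots at 7 h, against 9.08 and 9.16 in dark shoots at 7 h. At 24 h it was at 8.20 and 8.54 in submerged shoots, against 10.07 and 9.86 in dark shoots, with light shoots at 11.87 and 12.01, which also shows the higher 24 h values. AT1G75900 and AT4G28780 were 4.54 and 4.24 log2 units below light shoots in submerged shoots at 24 h.

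Transport genes made a further group, again put together after their values were seen. AT3G21670 encodes a nitrate transporter of the NPF family. It was at 6.27 and 6.19 in submerged shoots at 7 h, against 9.09 and 9.17 in dark shoots at 7 h, and at 5.88 and 6.44 in submerged shoots at 24 h, against 9.53 and 9.56 in dark shoots at 24 h. Light shoots were at 10.97 and 11.56. The water difference exceeded the darkness difference here, with levels 3.38 log2 units lower in submerged than dark shoots at 24 h and 1.73 units lower in dark 24 h than light shoots, and 39 of the 99 members had the larger difference with water at 24 h while 60 had it with darkness. AT5G65990, an amino acid transporter, was 0.94 log2 units lower in submerged than dark shoots at 24 h, and AT1G79520, a cation efflux family gene, was 1.01 lower.

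AT4G23670, a gene of the major latex protein family, had a wide water difference beside a small darkness difference. It was at 7.84 and 7.96 in submerged shoots at 7 h, against 9.78 and 9.43 in dark shoots at 7 h. At 24 h it was at 7.40 and 7.53 in submerged shoots, against 10.58 and 10.79 in dark shoots, with light shoots at 11.27 and 11.31. Its dark 24 h shoots were therefore 0.61 log2 units below light, close to the threshold of the rule, and its submerged shoots 3.22 units below dark ones. AT2G36145, a gene of unknown role, had the reverse proportions. It was at 8.00 and 8.41 in submerged shoots at 7 h, against 9.23 and 9.25 in dark shoots at 7 h, and at 5.46 and 5.44 in submerged shoots at 24 h, against 6.61 and 6.53 in dark shoots at 24 h. Light shoots were at 11.00 and 10.80, so that dark 24 h minus light shoots was -4.33 and submerged 24 h minus light shoots -5.45.

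**Figure D2:**
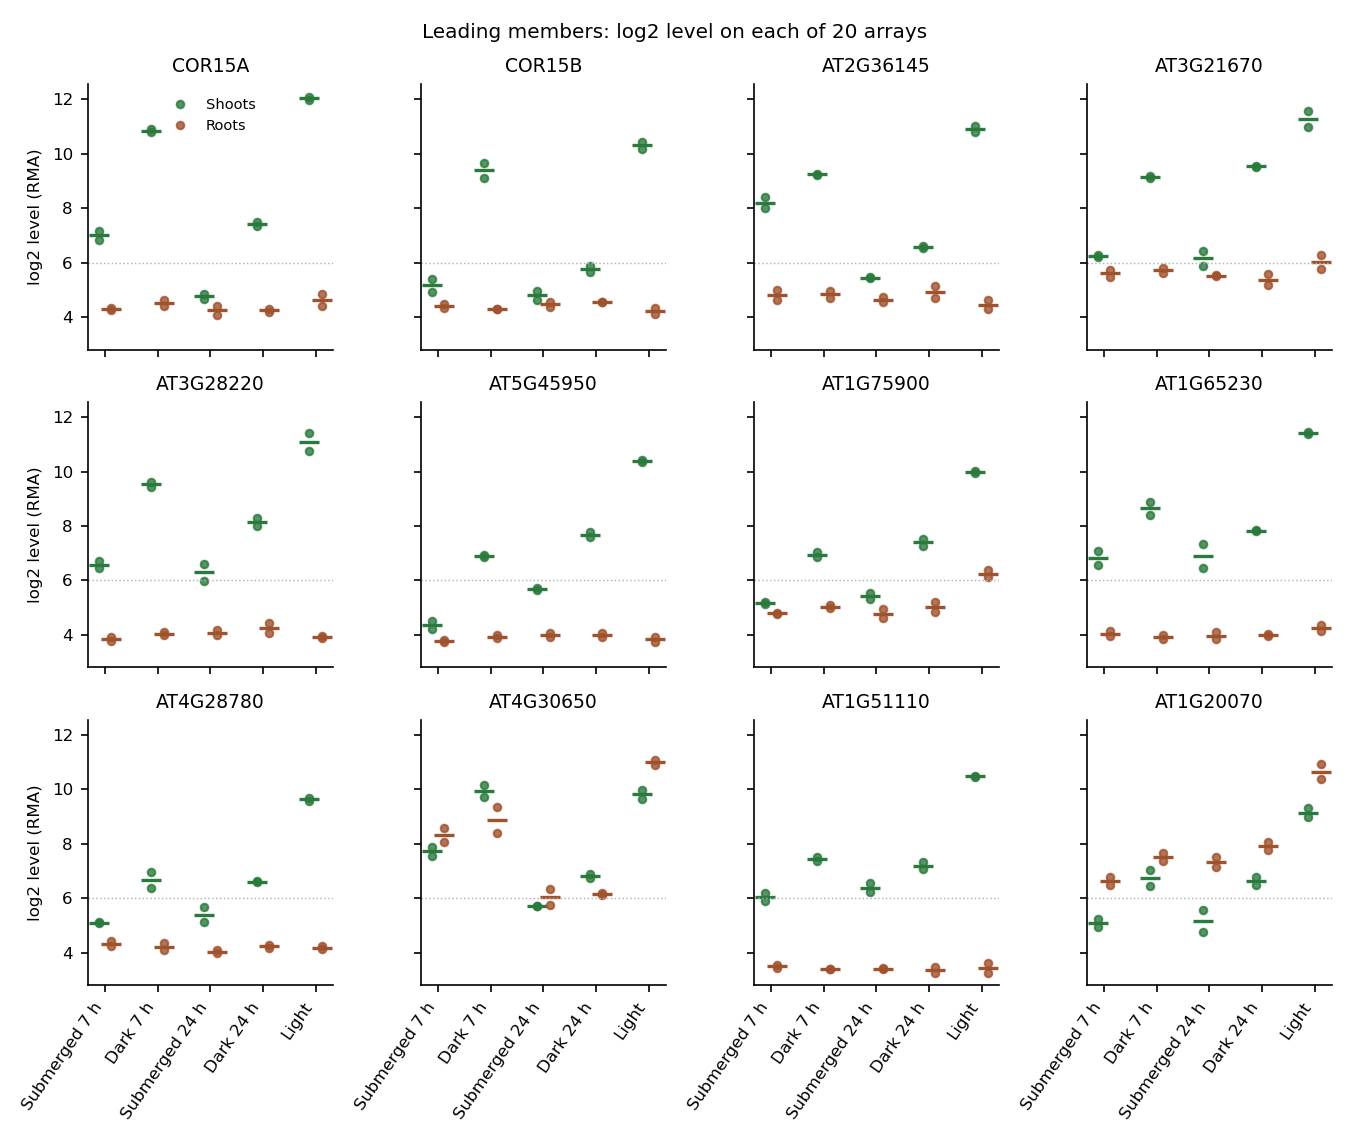
log2 level of 12 members on each array (points, 2 per group) with the group mean (bar), in submerged 7 h, dark 7 h, submerged 24 h, dark 24 h and light plants; shoots are green, roots brown, and the dotted line marks a log2 level of 6. In shoots every gene is lower in submerged than dark plants at the same time, while in roots 10 of the 12 stay near or under the dotted line.

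The remaining leading members have less settled roles. AT3G28220, which carries a TRAF-like domain, was at 6.70 and 6.44 in submerged shoots at 7 h, against 9.43 and 9.62 in dark shoots at 7 h. At 24 h AT3G28220 was at 5.99 and 6.60 in submerged shoots, against 7.99 and 8.28 in dark shoots, with light shoots at 10.75 and 11.41. AT1G65230 was at 6.57 and 7.07 in submerged shoots at 7 h, against 8.42 and 8.87 in dark shoots at 7 h, and at 6.47 and 7.35 in submerged shoots at 24 h, against 7.85 and 7.81 in dark shoots at 24 h. Its light shoots were at 11.37 and 11.46, and its submerged 24 h arrays lay further apart than those of most leading members, though still below both dark arrays. AT1G20070 was at 5.24 and 4.94 in submerged shoots at 7 h, against 7.02 and 6.46 in dark shoots at 7 h, with light shoots at 8.97 and 9.31.

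Several enzyme and receptor families had 2 or 3 members each, with smaller differences; they too were grouped after their values were seen. The transferases GSTU18, HCT and UGT71B1 were between 0.79 and 1.07 log2 units lower in dark 24 h than light shoots and between 0.86 and 1.73 lower in submerged than dark shoots at 24 h. GSTU18 was at 6.54 and 6.69 in submerged shoots at 7 h, against 8.20 and 8.00 in dark shoots at 7 h, and at 6.56 and 7.00 in submerged shoots at 24 h, against 8.55 and 8.48 in dark shoots at 24 h, with light shoots at 9.54 and 9.58. The submerged levels of this gene at both times thus overlapped, as did those of AT3G21670. The receptor kinase genes AT3G56370 and AT1G11410, the second with an S-locus lectin domain, were at 5.07 and 4.90 and at 4.06 and 4.43 in submerged shoots at 7 h, against 5.93 and 5.69 and 5.10 and 5.11 in dark shoots at 7 h. The haloacid dehalogenase phosphatase genes AT5G59480 and AT2G38740 were between 0.80 and 0.95 log2 units lower in submerged than dark shoots at 7 h and between 0.84 and 1.13 lower at 24 h. AT2G38740 was at 5.74 and 5.89 in submerged shoots at 7 h, against 6.61 and 6.62 in dark shoots at 7 h, and at 5.76 and 5.88 in submerged shoots at 24 h, against 6.61 and 6.72 in dark shoots at 24 h, so that neither treatment differed between the times by more than its arrays did. Its light shoots were at 9.27 and 9.35.

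NdhL encodes a subunit of the chloroplast NADH dehydrogenase-like complex, which carries electrons around photosystem I. NdhL was at 8.94 and 8.99 in submerged shoots at 7 h, against 10.11 and 9.95 in dark shoots at 7 h, and at 7.65 and 7.68 in submerged shoots at 24 h, against 8.74 and 8.82 in dark shoots at 24 h, with light shoots at 10.74 and 10.93. AT1G51110 encodes a fibrillin, a structural protein of plastid lipid bodies, and it was 3.28 log2 units lower in dark 24 h than light shoots. Of the light harvesting and photosystem list 7 of 40 genes were measured by name, and of the carbon fixation and photorespiration list 5 of 18; none of these was a member. Their median differences in dark 24 h minus light shoots were -0.51 and -1.32. In submerged minus dark shoots the medians were -0.47 and -0.57 at 7 h, when 2 of the 7 and 3 of the 5 were called lower by limma (7.14% of all probe sets were), and -0.24 and -0.21 at 24 h.

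STOMAGEN encodes a peptide that leaf mesophyll secretes and that promotes the formation of stomata. STOMAGEN was at 6.47 and 6.79 in submerged shoots at 7 h, against 7.88 and 7.78 in dark shoots at 7 h, and at 6.74 and 6.78 in submerged shoots at 24 h, against 8.01 and 7.71 in dark shoots at 24 h. Light shoots were at 9.43 and 9.30, above all dark and submerged ones. The other measured genes of the stomatal development list were SPCH, MUTE and FMA, transcription factors that drive successive steps of the stomatal lineage, and none of these was a member. SPCH was 1.95 log2 units lower in dark 24 h than light shoots, and its submerged minus dark differences were 0.75 at 7 h and 0.44 at 24 h, of which the second did not pass (limma, adjusted p = 0.0030 and 0.085). The mean SPCH level was under 6 in submerged and dark shoots at both times. For MUTE and FMA the submerged minus dark differences at 7 h were 0.45 and 0.52 (limma, adjusted p = 0.10 and 0.029). At 24 h these were 0.12 and 0.34 and did not pass (limma, adjusted p = 0.75 and 0.19). In dark 24 h minus light shoots MUTE differed by -0.73 and FMA by -0.26 (limma, adjusted p = 0.0015 and 0.18).

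The flavonoid and glucosinolate lists, measured by name in 3 of 13 and 2 of 21 genes, held no member. All 5 of these measured genes were called lower in dark 24 h than light shoots, where 25.4% of all probe sets were. DFR, which makes anthocyanin precursors, differed by -4.20 in dark 24 h minus light shoots on the log2 scale, and the submerged minus dark differences were 0.25 at 7 h and -0.09 at 24 h (limma, adjusted p = 0.33 and 0.78). BCAT4, the first enzyme of methionine chain elongation for glucosinolates, was 5.83 units lower in dark 24 h than light shoots, with submerged minus dark differences of 0.15 at 7 h and -0.12 at 24 h (adjusted p = 0.76 and 0.78).

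Most members were already below the light level in dark shoots at 7 h. In dark 7 h shoots 88 members were at least 0.5 log2 units below light, 10 were within 0.5 of it and 1 was above it. The limma fit called 87 members lower and 1 higher in dark 7 h than light shoots, where 24% of all probe sets were called lower and 24.9% higher; the light arrays were also used by the rule, so nothing is read from these counts. Between the harvests 64 members were higher in dark shoots at 24 h than at 7 h and 35 were lower. Of the named members near the light level at 7 h, AT5G62720 was at 7.57 and 7.65 in submerged shoots at 7 h, against 8.96 and 8.77 in dark shoots at 7 h, and light shoots were at 8.80 and 8.90. AT1G13930 was 0.20 log2 units above light in dark 7 h shoots and 0.92 below it in dark 24 h shoots. The single member well above light was the unnamed probe set 248337_at, at 5.32 and 5.75 in submerged shoots at 7 h, against 10.35 and 10.46 in dark shoots at 7 h, with light shoots at 9.41 and 9.49. At 24 h 248337_at was at 5.79 and 5.80 in submerged shoots and at 8.55 and 8.44 in dark shoots. GI, an evening gene of the circadian clock and no member, was 2.77 log2 units higher in dark 7 h than light shoots and 0.13 higher in dark 24 h than light shoots (limma, adjusted p = 1.2e-09 and 0.65); the part of the hour of harvest in the members' 7 h values was not tested.

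The water difference was larger at 7 h in 61 members and at 24 h in 38. AT1G30260 had one of the widest early ones, at 4.67 and 4.77 in submerged shoots at 7 h, against 8.53 and 8.38 in dark shoots at 7 h; this gene and the next were picked after their values were seen. AT1G78070, a gene for a WD40-repeat protein, was at 4.35 and 4.53 in submerged shoots at 7 h, against 7.23 and 7.08 in dark shoots at 7 h, and at 24 h at 5.12 and 5.07 in submerged shoots, against 6.34 and 6.78 in dark shoots. Submerged shoots were higher at 24 h than at 7 h in 65 members and lower in 34, so no single time course holds for the group.

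The rule has sharp thresholds, and members close to them differ little from probe sets that it left out. UGT71B1, a glycosyltransferase gene, entered with a submerged minus dark difference of -0.8013 at 7 h, and AT3G19790 with -0.8022 at 24 h. The plastid gene rbcL, the large subunit of Rubisco, stayed out with -0.7954 at 7 h. With the replicate 1 arrays alone 125 probe sets met the rule, and with the replicate 2 arrays alone 88 did. Both sets held 61 probe sets, which is 48.8% of the first set and 69.3% of the second.

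The root arrays took no part in the choice of members. The level in light roots is first set against light shoots, whose arrays the rule did use, so that this comparison is a description. In light roots 88 of the 99 members were lower than in light shoots, as were 11021 of all 22746 probe sets. A difference of at least 1 log2 unit in that direction was found for 79 members (79.8%) and 13.5% of all probe sets. The mean over the 10 root arrays was above a log2 level of 6 for 40 members (40.4%) and for 54.1% of all probe sets. On every root array 45 members were at or under 6, a count whose share over all probe sets was not taken. A level of 6 was chosen as the line below which a probe set is dim. The 6 deepest members with named genes, COR15A through AT5G45950 in the plot of leading members, were at or near the dim range in roots, and the tests below say little about them.

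With darkness, 52 members (52.5%) fell in dark roots at 24 h relative to light roots, where 25% of all probe sets were called lower, and 10 (10.1%) rose, where 27.8% were called higher (limma with Benjamini-Hochberg adjustment). At 7 h 47 members (47.5%) fell, where 22.1% of all probe sets did, and 2 rose, where 24.8% did. Of the members, 41 fell at both times, compared with 18.9% of all probe sets. The median member was 0.55 log2 units lower in dark 24 h than light roots and 0.38 lower in dark 7 h than light roots, while the medians of all probe sets were 0.10 and 0.08 higher. Centring each array on its median moved the median of all probe sets by 0.14 in the 24 h comparison. Of the 4824 probe sets lowered by darkness in shoots but not by water at either time, 58.0% were lower in dark roots at 24 h and 48.0% at 7 h, shares close to those of the members.

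The steepest root fall was that of AT4G30650, the low-temperature and salt responsive gene. It was at 6.13 and 6.19 in dark 24 h roots, against 10.91 and 11.08 in light roots, a log2 change of -4.84 ± 0.26 (SE, adjusted p = 6.7e-11 by limma). In dark 7 h roots it was at 9.34 and 8.38, between those levels. The phosphatases AT5G59480 and AT2G38740, both of the haloacid dehalogenase superfamily, fell in step. AT5G59480 was at 4.56 and 4.50 in dark 24 h roots, against 7.46 and 7.52 in light roots, a change of -2.96. AT2G38740 was at 6.32 and 6.69 in dark 24 h roots, against 9.58 and 9.31 in light roots, a change of -2.94. Both had already fallen at 7 h, by 2.66 and 2.03 log2 units. AT1G20070 was at 7.79 and 8.05 in dark 24 h roots, against 10.92 and 10.38 in light roots, and AT3G10080, a germin-like cupin gene, was at 5.75 and 5.88, against 8.38 and 8.63. None of these groups overlapped, and each of these 5 calls held when any 1 array of the comparison was left out.

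Among the esterases, AT1G75900 fell by 1.24 and AT1G29660 by 1.11 log2 units in dark roots at 24 h relative to light roots. AT1G75900 was above 6 only in light roots, at 6.14 and 6.37, and was dim in the other root groups. The remaining esterases of the set were dim in roots. Of the named members that rose in dark 24 h roots, UGT71B1 changed by 0.60, AT3G51510 by 0.52 and AT2G36145 by 0.46 (limma, adjusted p = 0.015, 0.017 and 0.039). UGT71B1 was at 6.04 and 6.07 in dark 24 h roots, against 5.49 and 5.41 in light roots. These rises were within the dim range or at its edge, and each lost its call when 1 of several arrays was left out, with adjusted p up to 0.072, 0.13 and 0.38. The summed level of the shoot markers was 6.88 to 7.04 in dark 24 h roots and 5.77 to 6.92 in light roots. Of these 2 markers RCA had a mean above a log2 level of 6 in each root group and STOMAGEN was dim. Some other leaf genes differed more. Of the light harvesting and photosystem list, 3 of 7 measured genes were called higher in dark 24 h than light roots. Of the carbon fixation and photorespiration list 1 of 5 was, and 0 were called lower in either list. LHCB4.1 was 3.42 log2 units higher. The part of shoot material in the root values was not tested.

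**Figure D3:**
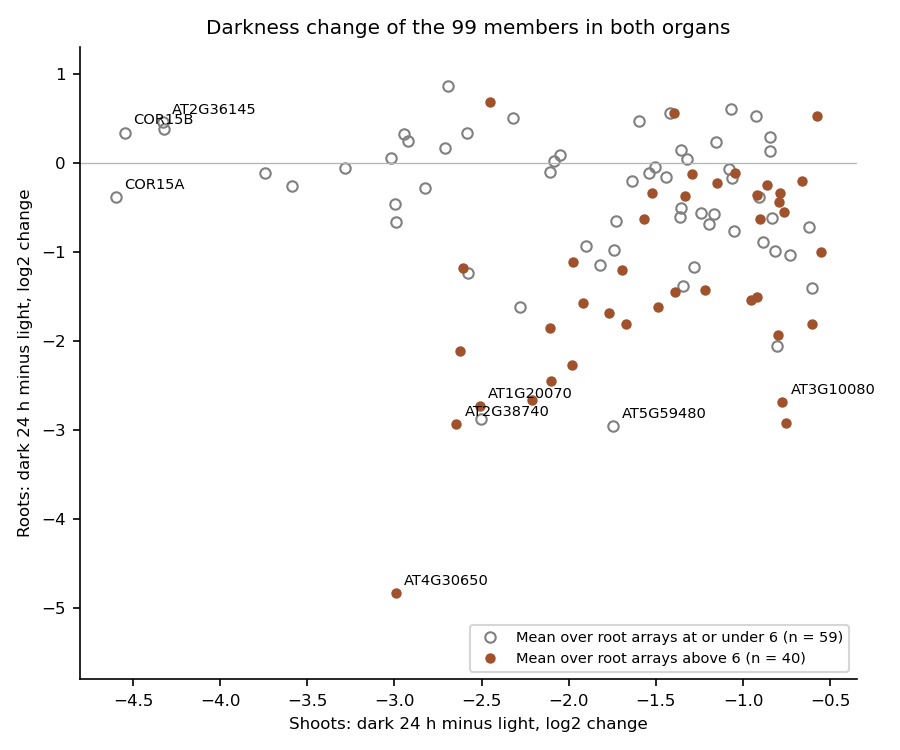
Dark 24 h minus light log2 change of the 99 members in shoots (horizontal) and roots (vertical); filled points have a mean over root arrays above a log2 level of 6 (40 members), open points at or under it (59). Most filled points lie below 0 in roots, with AT4G30650 lowest at -4.84, and the deepest shoot changes (COR15A, COR15B, AT2G36145) stand near 0 in roots.

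Among the 40 members with a root mean above 6, 29 (72.5%) fell in dark 24 h roots, against 31.5% of the 12294 probe sets with such a mean, and 29 fell in dark 7 h roots, against 27.7%. The comparison set met the darkness threshold but neither water threshold in shoots. Its probe sets with such a mean were lower in 66.8% of cases at 24 h and 55.4% at 7 h. Across these 40 the shoot and root changes at 24 h had Pearson r = 0.47, and across all 99 r = -0.07. These correlations run across members that share the same arrays and are given as a description only.

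Fewer members were called with water than with darkness in roots, and the same held for all probe sets. Between submerged and dark roots at 7 h, 19 members (19.2%) fell, where 4.27% of all probe sets were called lower, and 1 rose, where 4.42% were called higher. At 24 h 10 members (10.1%) fell, where 1.83% of all probe sets were called lower, and 1 rose, where 1.39% were called higher. The median member was 0.18 log2 units lower at 7 h and 0.15 lower at 24 h, while the medians of all probe sets were 0.04 and 0.02 lower. Without submerged replicate 1 or dark replicate 1, 9 members each time were lower at 7 h, where 2.29% and 2.56% of all probe sets were called lower, and without submerged replicate 2 the count was 11, where 1.34% were. At 24 h 3 members were lower without submerged replicate 2 (0.62% of all probe sets) and 4 without dark replicate 2 (1.37%). Of the 40 members with a root mean above 6, 17 (42.5%) fell at 7 h and 9 (22.5%) at 24 h, against 6.48% and 2.65% of all probe sets with such a mean. In all 23 members (23.2%) fell in submerged roots at 1 or both times, as did 5.49% of all probe sets, and 6 (6.06%) fell at both, as did 0.611%. Of the 23, 19 had also fallen in dark roots (19.2% of the members and 2.39% of all probe sets fell with both).

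The 105 probe sets that were raised by darkness and lowered by water in shoots were lower in submerged roots in 20 cases (19.0%) at 7 h and 13 (12.4%) at 24 h. Of those with a root mean above 6, 26.4% were lower at 7 h and 17.0% at 24 h. In dark 24 h roots 34 of them were lower and 34 higher. Of the 4824 dark-lowered probe sets that met neither water threshold, 5.93% were lower in submerged roots at 7 h and 1.41% at 24 h.

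AT2G38640, a gene of the LURP-one-related family, had the largest root fall under water among the named members. It was at 6.57 and 6.15 in submerged roots at 7 h, against 7.67 and 7.73 in dark roots at 7 h, a log2 change of -1.34 ± 0.23 (SE, adjusted p = 0.0013 by limma). At 24 h it was at 8.64 and 8.12 in submerged roots, against 9.01 and 9.43 in dark roots, a difference of -0.84 that did not pass (adjusted p = 0.053). AT2G38640 is also unusual in its organ, being 2.27 log2 units higher in light roots than light shoots. AT3G56370, a leucine-rich repeat receptor kinase gene, was at 6.50 and 6.14 in submerged roots at 7 h, against 7.29 and 7.10 in dark roots at 7 h, a change of -0.88 ± 0.14 (SE, adjusted p = 0.00076 by limma). At 24 h its groups were at 6.88 and 6.64 in submerged roots and 6.54 and 6.63 in dark roots, without a call. These 2 were the only ones of the 10 named members called lower at 7 h whose call held without each of the 4 arrays in turn.

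AT3G10080 was at 5.37 and 5.82 in submerged roots at 7 h, against 6.93 and 6.22 in dark roots at 7 h, a change of -0.98 (limma, adjusted p = 0.0059). Without submerged replicate 1 or dark replicate 1 the adjusted p reached up to 0.087. AT5G62130, a gene of the Per1-like family of membrane proteins, was at 6.83 and 6.49 in submerged roots at 7 h, against 7.64 and 7.49 in dark roots at 7 h, a change of -0.91 (adjusted p = 0.015). Its call was lost without submerged replicate 2 or dark replicate 1 (adjusted p up to 0.16). The remaining named falls at 7 h, in AT1G20070, AT2G42690, AT1G13930, AT5G62720, AT2G38740 and AT5G55960, were between -0.88 and -0.54.

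At 24 h AT2G42690, a lipase-like alpha/beta hydrolase gene, was at 5.32 and 5.36 in submerged roots, against 6.42 and 6.60 in dark roots, a log2 change of -1.17 ± 0.22 (SE, adjusted p = 0.0053 by limma). The groups did not overlap, and the adjusted p was 0.054 without dark replicate 2. The major latex protein gene AT4G23670 was at 7.83 and 7.77 in submerged roots at 24 h, against 8.59 and 8.76 in dark roots at 24 h, a change of -0.87 (adjusted p = 0.011). At 7 h it was at 8.96 and 8.68 in submerged roots and 8.71 and 8.22 in dark roots, without a call. Leaving out any 1 of the 4 arrays at 24 h ended its call, with adjusted p up to 0.11. AT3G19790, AT1G78210 and AT2G38740 fell by 0.83, 0.68 and 0.54 log2 units at 24 h, and each of these calls was also lost without at least 1 array.

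AT1G29660 was the single member that rose under water in roots at 24 h. It was at 6.74 and 6.94 in submerged roots, against 6.03 and 5.95 in dark roots, a change of 0.85 ± 0.15 (SE, adjusted p = 0.0039 by limma), with an adjusted p of 0.073 without submerged replicate 2. In shoots the same esterase gene was 1.59 log2 units lower in submerged than dark plants at 24 h. An unnamed member, 258239_at, was at 6.05 and 6.59 in submerged roots at 7 h, against 7.50 and 7.13 in dark roots at 7 h, and at 4.53 and 4.73 in submerged roots at 24 h, against 5.84 and 5.84 in dark roots at 24 h. Light roots were at 4.67 and 5.29, so this probe set was lowest in light and in submerged 24 h roots, and it rose by 2.34 log2 units in dark 7 h roots relative to light roots (limma, Benjamini-Hochberg adjusted p under 0.05). It was 8.05 log2 units lower in light roots than light shoots.

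**Figure D4:**
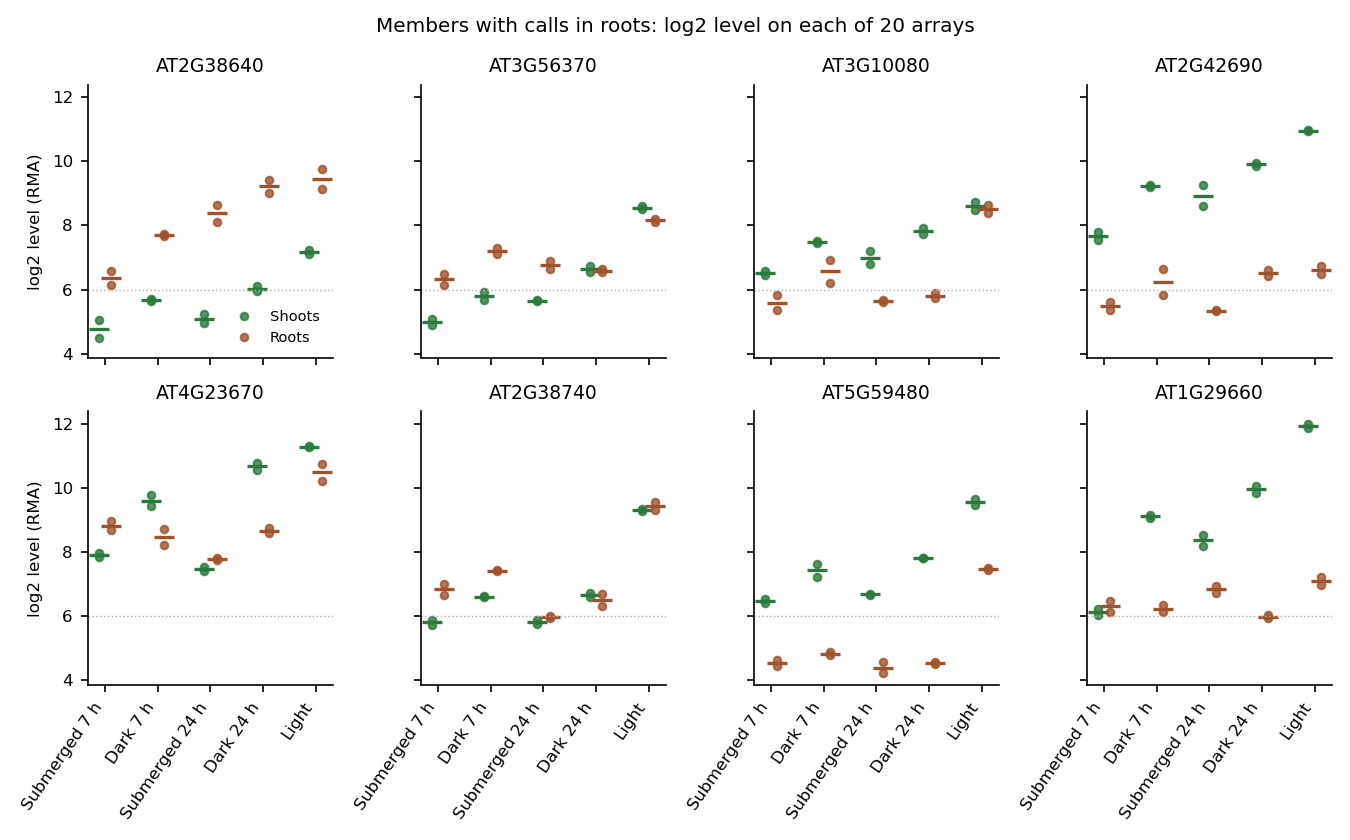
log2 level of 8 members with calls in roots on each array (points, 2 per group) with the group mean (bar), in submerged 7 h, dark 7 h, submerged 24 h, dark 24 h and light plants; shoots are green, roots brown, and the dotted line marks a log2 level of 6. AT2G38640 in roots is lowest in submerged plants at 7 h (6.57 and 6.15), and AT1G29660 in roots is higher in submerged than dark plants at 24 h while its shoots are lower.

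In all, 27 of the 99 members (27.3%) had no call in any root comparison, where 38.4% of all probe sets had none, and 1 of these had a root mean above 6. Among the 27 were COR15A, COR15B, STOMAGEN, NdhL and AT1G51110. STOMAGEN was between 3.43 and 3.82 on the root arrays. HCT, an acyltransferase of lignin precursor synthesis, was bright in both organs. HCT was at 8.24 and 8.25 in submerged shoots at 7 h, against 9.35 and 9.45 in dark shoots at 7 h, and at 9.92 and 10.12 in submerged roots at 7 h, against 10.45 and 10.54 in dark roots at 7 h. The root difference of -0.48 did not pass at 7 h, and HCT fell by 0.42 log2 units in dark 7 h roots relative to light roots, a call lost without 1 of several arrays. GSTU18, a glutathione transferase gene, fell by 0.77 log2 units in dark 24 h roots relative to light roots, and its submerged minus dark difference in roots at 7 h was 0.34, without a call.

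**Figure D5:**
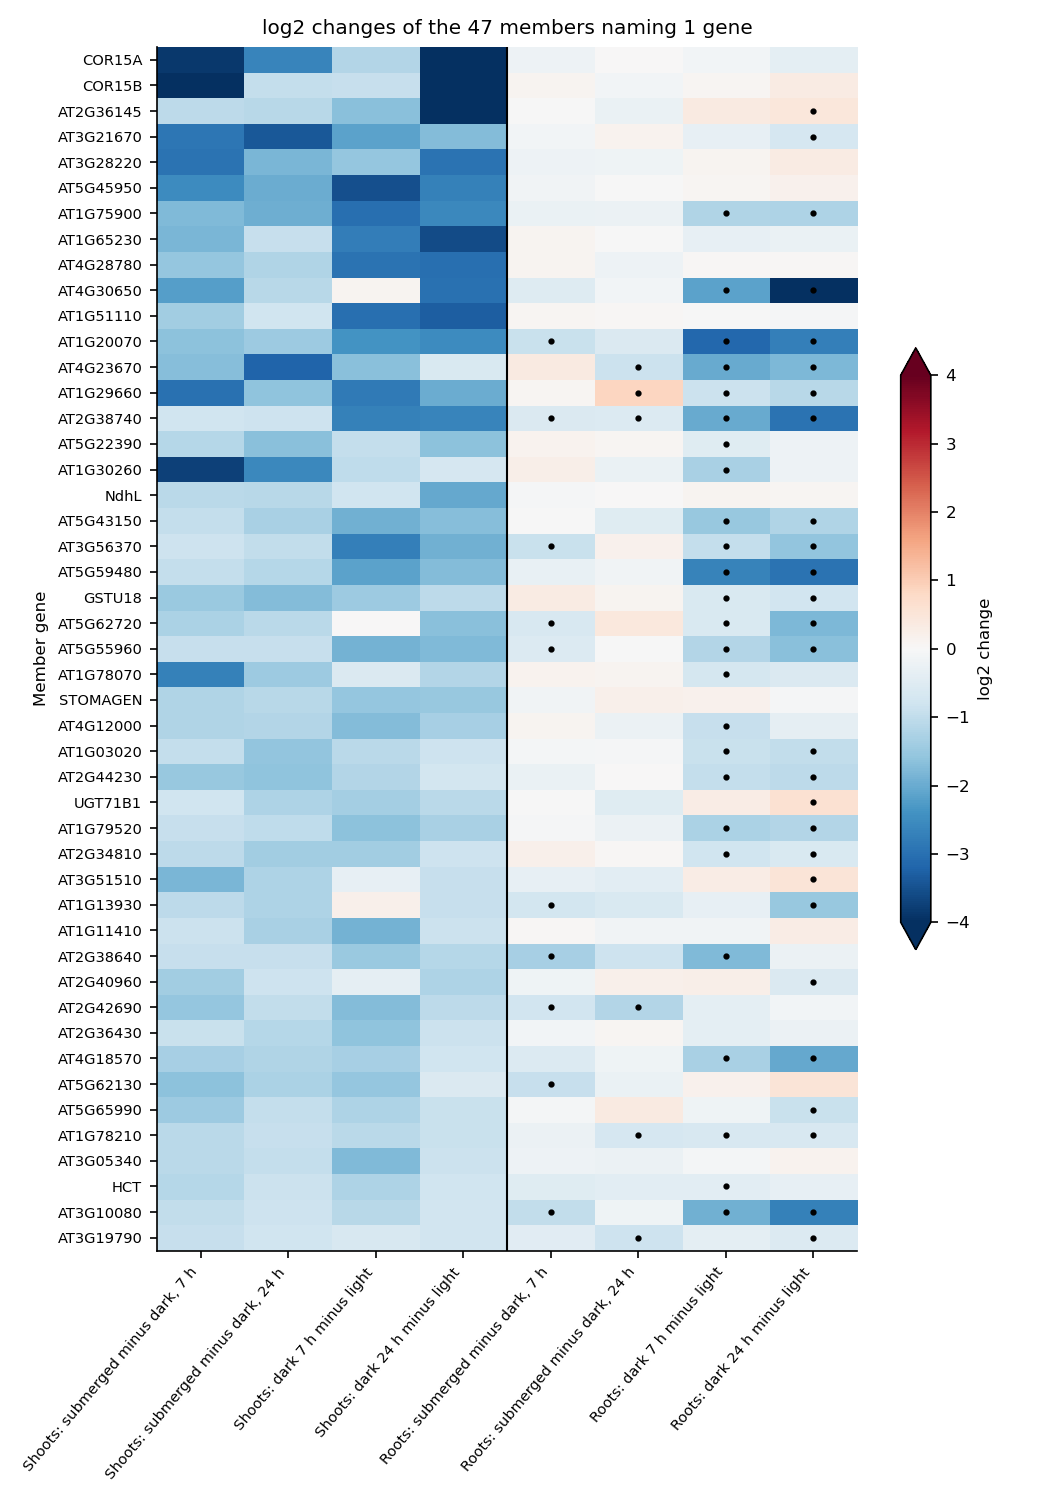
log2 change of the 47 members that name 1 gene in 4 shoot comparisons (left of the line) and 4 root comparisons (right), ordered by submerged 24 h minus light in shoots; black dots mark root changes with an adjusted p under 0.05 and colours saturate at 4. The shoot side is blue almost throughout by the choice of members, and the root dots lie mostly in the darkness columns, led by AT4G30650. More of all probe sets were also called in roots with darkness than with water.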

How the data were processed

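Levels are deposited log2 values of 22810 probe sets on 20 arrays, made by the authors with RMA in the affy package, per the submitters' processing notes; versions, background settings and genome build are not given in the sources used here. The 64 control probe sets were left out. All 22746 others were fitted in limma 3.58.1 (R 4.3.3) as 10 group means with lmFit and eBayes (10 residual and 7.04 prior degrees of freedom), two-sided, with Benjamini-Hochberg adjustment over all probe sets and a threshold of 0.05. The scripts were tested on simulated data. The number of arrays, 2 per group, limits the precision. RMA pulls low levels together and gives no detection call, so differences of dim probe sets are understated. Names came from the platform's annotation, updated through a RefSeq table: 13513 probe sets named 1 gene, 503 several and 8730 none. The members and gene lists were chosen with earlier results of these data known. Genes named in the text were, among members naming 1 gene, the 12 lowest in submerged 24 h minus light shoots, the 6 brightest in light shoots, the largest root calls, list members, those nearest the thresholds and the extremes of dark 7 h minus light; others are said to be picked later or stand for their role group. No sequences were used here. Alternatives were other scalings, a filter on dim probe sets, root arrays alone, a variance trend, a replicate block, a minimum change and leaving out arrays.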

Additional observations from a re-analysis of the deposited data

Results flagged for a closer look

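AT1G29660, a GDSL esterase gene, moved in opposite directions under water in the organs at 24 h. It was higher in submerged than dark roots by 0.85 log2 units, and both submerged root arrays lay above both dark ones, while in shoots both submerged arrays lay below both dark ones. The shoot direction was fixed by the choice of members, and the difference between the organs was not tested.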

How the results depend on the processing

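The member count of 99 was 178 with all 3 thresholds 0.2 looser and 45 with them 0.2 stricter, 88 without replicate 1, 125 without replicate 2 and 86 to 116 without 1 shoot array. It stayed within 1.5 times under quantile normalization (97) and median centring (93). The filter on dim probe sets kept all 99. That outcome was fixed in advance, since every member was above 6 on both light shoot arrays. In roots, an absolute log2 change of at least 1 was also required, with shares of all probe sets in brackets. In submerged against dark roots, this left 5 members lower (0.484%) and 0 higher (1.16%) at 7 h. At 24 h it left 5 lower (0.475%) and 0 higher (0.462%). In dark against light roots, 28 were lower (9.79%) at 7 h, and 33 were lower (12.9%) and 0 higher (10.6%) at 24 h. With root arrays only, 14 members were lower (2.95% of all probe sets) and 0 higher (3.57%) in submerged than dark roots at 7 h. With median centring 5 were higher in dark 7 h roots than light roots, where 29.3% of all probe sets were. Leaving out 1 root array gave, for submerged against dark roots, 9 to 17 lower and 0 higher at 7 h, and 3 to 8 lower and 0 to 1 higher at 24 h; for dark against light roots it gave 42 to 44 lower and 3 to 4 higher at 7 h, and 45 to 50 lower and 5 to 8 higher at 24 h. Without 1 root array the share of all probe sets called also fell in each of these comparisons, in both directions. The ranges are therefore not read as a property of the members. No checked call of a named gene changed direction under the alternatives, but many calls were lost. The minimum change lost 8 of 9 checked calls at 7 h and 5 of 6 at 24 h in submerged against dark roots. In dark against light roots the minimum change lost 4 of 12 at 7 h and 7 of 18 at 24 h. Most calls for submerged against dark roots were also lost without 1 or another array, as given above for single genes. For submerged against dark roots, root arrays only lost 4 of 9 checked calls at 7 h and 2 of 6 at 24 h. For dark against light roots it lost 0 of 12 at 7 h and 1 of 18 at 24 h. The replicate block lost 2 of 9 for submerged against dark roots at 7 h and 0 in the other root comparisons. Samples of one replicate number did not deviate together (r of -0.14 to 0.16 over 45 pairs of groups, over 0.1 in 5). This does not settle whether the numbers pair the arrays. With the replicate block the 4 root counts of lower members were 17, 10, 47 and 53. The shares of all probe sets were 4.07%, 1.79%, 22.1% and 24.9%. RMA's compression at low signal limits what can be read for the 45 members that were dim on every root array.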
